A study of Mus musculus with 10 samples.

Results

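The SR proteins and the hnRNPs, the principal families of pre-mRNA splicing regulators, were followed in mouse liver over the 72 h after an acetaminophen overdose. The members were chosen by name: every probe that is no control spot and whose gene name in the array files is an Srsf or older Sfrs name, an Hnrnp or older Hnrp name, Tra2a, Tra2b or Tardbp. This gave 64 probes of 36 genes, of 31539 gene names on the array, and each probe was followed separately. The family was put forward with the treated over control ratios of these arrays already known. Those ratios, and the control levels that enter them, are therefore given as a description with their calls, and no adjusted p is given for a member.

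All mice were female C57BL/6, 8 weeks old and fasted for 24 h. Treated mice then received 1 intraperitoneal dose of acetaminophen, 350 mg/kg in phosphate-buffered saline, and control mice received the saline without the drug. Livers were taken at 3, 8, 24, 48 and 72 h, with 2 arrays per time point. Every array paired a control mouse (Cy3) with a treated mouse (Cy5), and arrays are named here by the number of the treated mouse. The labels give each mouse a number within its time point, so the replicates are separate animals. Control RNA was green and treated RNA red on all 10 arrays, so within a time point treatment and probe-specific dye bias cannot be told apart. RNA came from whole liver, and fewer cells of a type and less RNA per cell cannot be told apart in such samples. Hepatocyte markers (6 of 6 measured) had summed log2 levels of 17.96 to 19.05 over the 20 channels. On single arrays 23440 to 29488 of the 29623 probes kept for testing were well above background in the control channel and 17307 to 28385 in the treated channel.

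SR proteins carry RNA recognition motifs and a tail rich in arginine and serine, bind exonic enhancers in pre-mRNA and recruit the splicing machinery. The hnRNPs are a mixed group of RNA-binding proteins that coat nascent transcripts, and many of them repress exon inclusion where SR proteins promote it. Phosphorylation of the arginine-serine tail by the CLK and SRPK kinases controls where SR proteins reside and how active they are. Many genes of both families also regulate their own transcripts through cassette exons whose inclusion leads to decay of the messenger RNA, so that probes for different parts of one gene can report different transcripts.

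6 of the array's 60-base probe sequences are shown first because the results differ between probes of one gene, and the sequences show what each can see. The first group reads through the family's hallmarks. In the Srsf2 and Srsf5 probes the capitals mark arginine and serine codons that alternate in one open reading frame, with 6 and 7 adjacent pairs, and in the Hnrnpa0 probe they mark the codons of the RNP1 core of an RNA recognition motif. Positions are on mm9 as the files give them.
Srsf2 probe A_55_P2030486 (chr11:116713385-116713444, minus strand): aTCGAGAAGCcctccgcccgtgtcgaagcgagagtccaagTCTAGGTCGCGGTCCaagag
Srsf5 probe A_55_P2157872 (chr12:82050878-82050937, plus strand): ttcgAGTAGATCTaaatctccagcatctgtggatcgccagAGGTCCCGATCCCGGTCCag
Hnrnpa0 probe A_52_P625431 (chr13:58229242-58229301, minus strand): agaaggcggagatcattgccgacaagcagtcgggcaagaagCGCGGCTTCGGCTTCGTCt
The next probe belongs to the Srsf3 pattern described below, and its 60 bases hold an open reading frame.
Srsf3 probe A_55_P2177614 (chr17:29173333-29173392, plus strand): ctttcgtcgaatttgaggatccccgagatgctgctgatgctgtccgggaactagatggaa
The last group, of Hnrnpa3, spans exon junctions: the 60 bases of each map over 144 and 705 bases of the genome, so they match the joined exons.
Hnrnpa3 probe A_55_P2020443 (chr2:75500576-75500719, plus strand): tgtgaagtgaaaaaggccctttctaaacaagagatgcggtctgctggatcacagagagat
Hnrnpa3 probe A_55_P2058628 (chr2:75500962-75501666, plus strand): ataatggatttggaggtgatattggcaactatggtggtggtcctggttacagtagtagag
Of the 64 member probes, 49 had an open frame over their whole length and 15 had none, 5 held a polyadenylation signal, and G plus C content had a median of 36.7% and reached 61.7%. An open frame in any reading frame was enough for this count, and 60 bases of a UTR can also lack a stop codon. Whether a probe lies in coding sequence or in a UTR was not analysed here, and the open frames do not show it.

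Values below are log2 ratios of treated over control, for the 2 arrays of a time point in the order of replicate 1 and 3 (2 and 3 at 8 h), or their mean ± SE of the fit (n = 2). A probe is called higher or lower where limma's moderated test over all 29623 kept probes gave a Benjamini-Hochberg adjusted p under 0.05. Of the member probes 63, from 35 genes, passed the filter on dim signals, and the only Tra2b probe did not. That filter asked for signal in 1 channel at 1 time point, so the counts below concern these 63 and not all members. No member probe was saturated on any array. Ratios of probes near the background are understated, because an offset of 50 was added to both channels.

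The size and direction of the response differed between time points. At 3 h, 2 member probes were called higher and 5 lower, beside 2.26% and 2.86% of all kept probes. At 8 h the counts were 10 and 8 (7.35% and 8.24% of all kept probes), and at 24 h 10 and 2 (7.5% and 12.1%). At 48 h they were 22 higher and 6 lower, beside 19.3% and 14%. At 72 h limma called no member, beside 0.00675% of all kept probes in each direction. At an unadjusted p under 0.05 by limma the member counts were 6 higher and 2 lower, beside 10.9% of all kept probes in either direction. At 48 h Hnrnpa3 was the 1 gene with probes called in both directions. Nothing is read from these counts, since the family was chosen with the same ratios known.

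**Figure D1:**
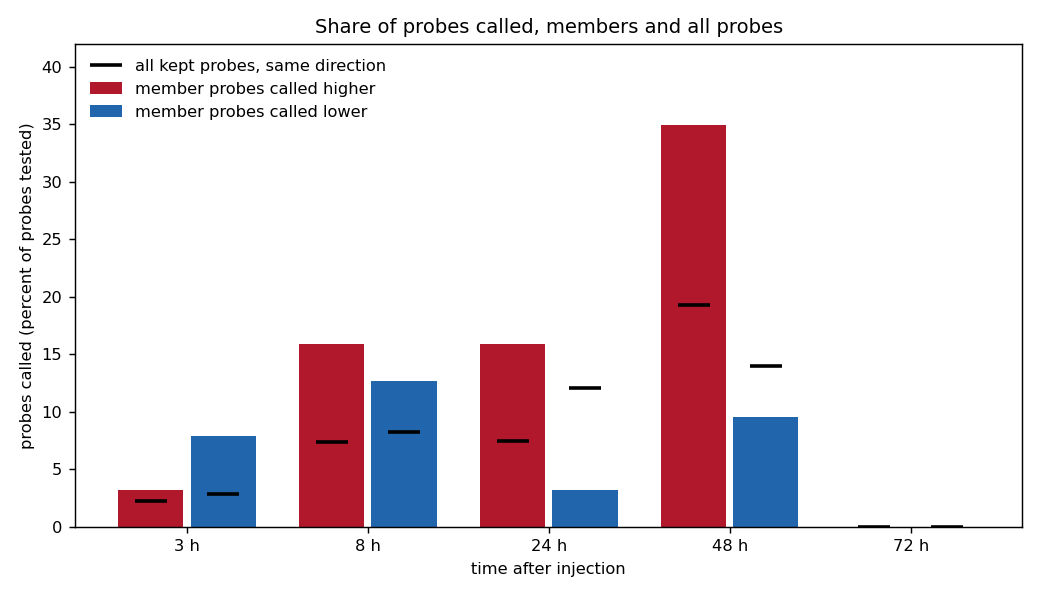
Percent of the 63 member probes called higher (red) or lower (blue) in treated over control livers at each time point after injection, with black bars for the percent of all 29623 kept probes called in that direction. The tallest bar is the 22 member probes called higher at 48 h, and both bars are at 0 at 72 h.

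The median log2 ratio of the member probes at 3, 8, 24, 48 and 72 h was -0.14, 0.089, 0.065, 0.13 and 0.016 in turn, while that of all kept probes stayed between -0.013 and -0.00050. Both arrays of a time point gave a member median of the same sign except at 72 h, where they stood at -0.070 and 0.067. Over the member probes, which are not independent, Pearson's r between the 2 arrays was 0.79, 0.87, 0.81 and 0.83 for 3 to 48 h in turn, and 0.21 for 72 h. The 2 arrays of each time point were scanned on different days, so each array's value is also a value within its scan day.

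**Figure D2:**
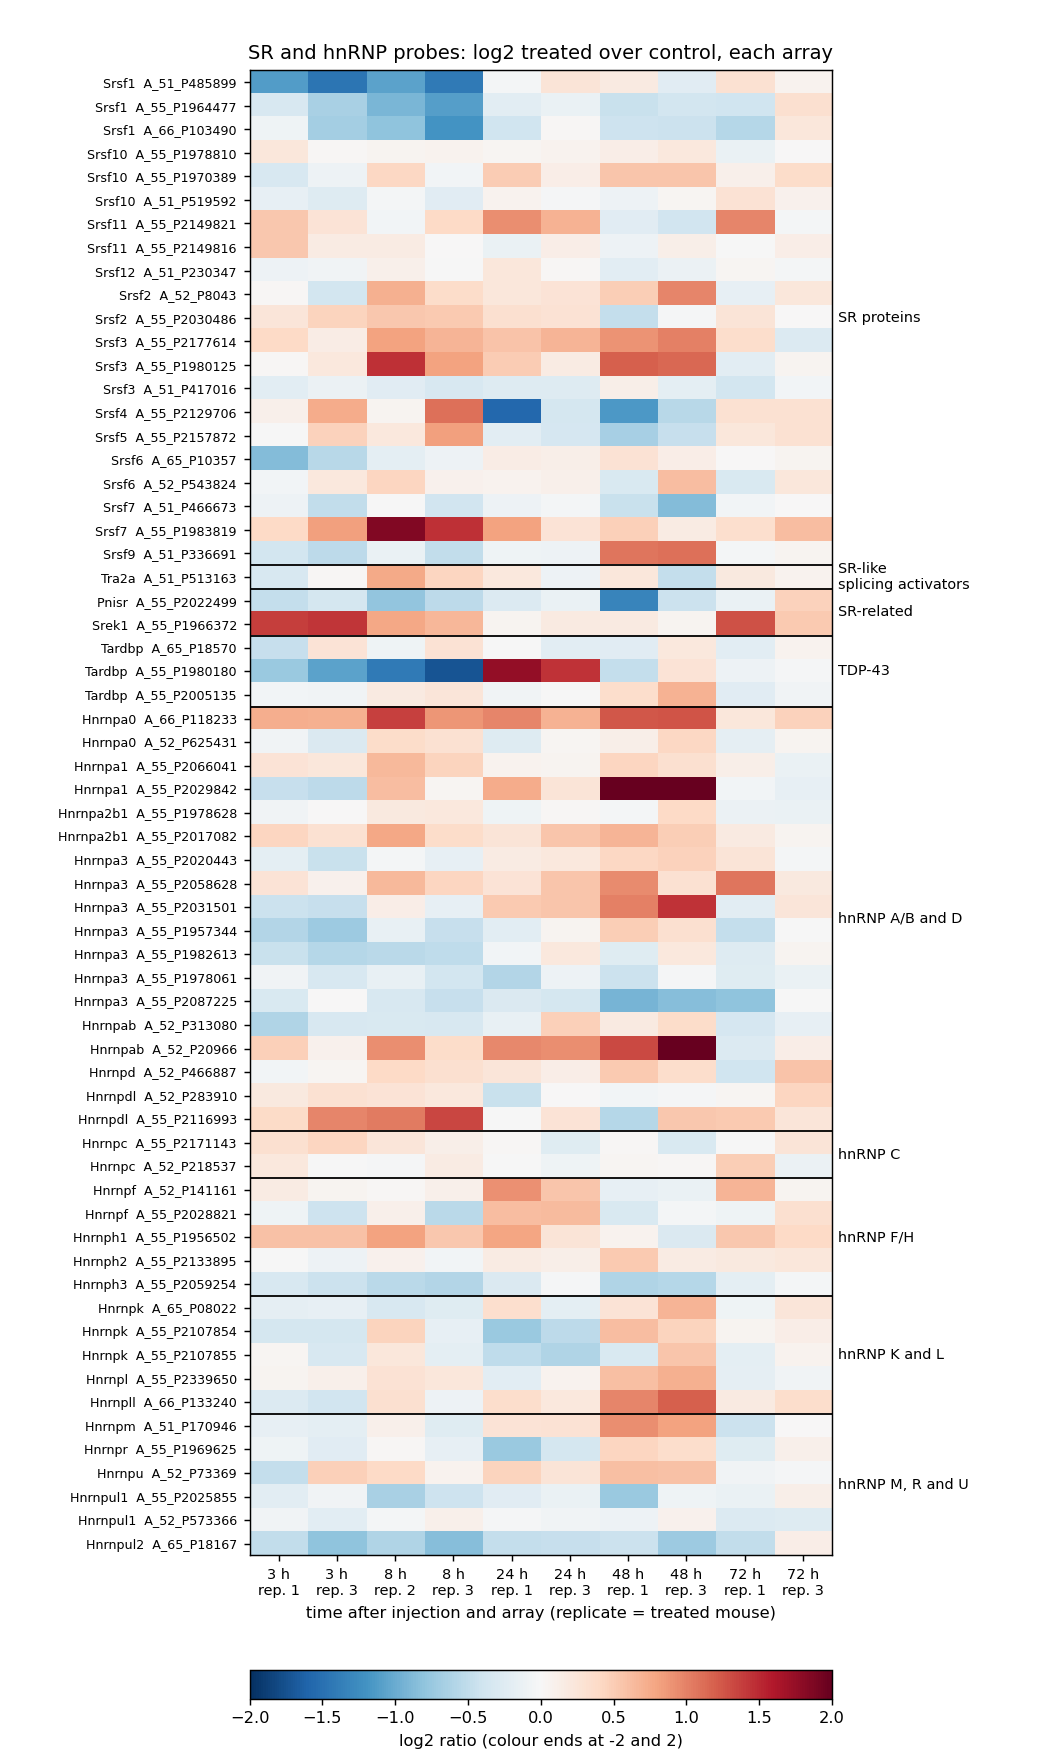
Log2 ratio of treated over control for each of the 63 kept member probes (rows, grouped by protein class) on each of the 10 arrays (columns). Colour runs from blue (lower in treated) to red (higher in treated) and ends at -2 and 2. The Srsf1 probes and 1 Tardbp probe are blue at 8 h, and Hnrnpa1, Hnrnpab, Hnrnpa0, Hnrnpll and Hnrnpm each have a red row at 48 h.

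The scaling of the arrays mattered for these counts. Loess removes a trend of the ratio with signal intensity within each array. With plain median centring in its place, the median of all kept probes moved to -0.22 at 3 h and -0.11 at 24 h, and that of the members to -0.75 at 3 h and 0.41 at 48 h. No member was then called by limma at 3, 8 or 24 h, and 9 were called higher and 1 lower at 48 h, against 22 and 6 with loess. The 9 were both brighter Srsf3 probes, Srsf9, Hnrnpa0, both Hnrnpa1 probes, Hnrnpab, Hnrnpl and Hnrnpll, and the 1 lower was Hnrnph3. Values that lost the call could lie farther from 0 than with loess or nearer to it. Srsf1 A_51_P485899 at 3 h was -2.076 against -1.283 with loess, and Tardbp A_55_P1980180 at 8 h -1.896 against -1.565. The Srek1 probe at 3 h was 0.2053 against 1.407. With the slide as a block, the counts were 2 in place of 7 at 3 h, 9 in place of 18 at 8 h, 7 in place of 12 at 24 h and 17 in place of 28 at 48 h. Single arrays decided many calls at the early time points: the count at 3 h was 2 without replicate 1 and 3 without replicate 3, that at 8 h was 4 without replicate 2 and 7 without replicate 3, and that at 24 h was 1 without replicate 1 and 7 without replicate 3. At 48 h it was 16 without either array. With 1 array of a time point left out, the estimate is the other array's value, and its spread is taken from the other time points. Some calls near the threshold were also lost without arrays of other time points: Srsf9 at 3 h, Srsf11, Hnrnpa2b1 and Hnrnph1 at 24 h, Hnrnpul1 at 8 h, and Hnrnpa3 A_55_P1957344, Hnrnpk A_65_P08022, Hnrnpr and Hnrnpu at 48 h. Of the 22 probes called higher at 48 h, 10 stayed called with each of the 10 arrays left out in turn, namely both brighter Srsf3 probes, Srsf9, Hnrnpa0, Hnrnpa1 A_55_P2029842, Hnrnpa3 A_55_P2031501, Hnrnpab, Hnrnpl, Hnrnpll and Hnrnpm.

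Markers of other cells moved at the same time points. Of 5 neutrophil markers measured, 4 were called higher at 24 h and 5 at 48 h, and their summed log2 level at 48 h was 9.367 and 9.181 in control against 12.74 and 12.43 in treated livers. At 24 h the treated livers stood at 14.14 and 12.71 against 9.983 and 11.13. Of 6 hepatocyte markers 3 were called lower at 24 h and 4 at 48 h, with summed levels of 18.94 and 19.05 in control and 18.45 and 18.02 in treated livers at 48 h. Of 5 markers of recruited macrophages 3 were called higher at 48 h, and of 5 Kupffer cell markers 1 (Marco). Of 4 biliary markers 2 were called higher at 48 h, and of 5 sinusoidal endothelial markers 1 (Lyve1). The endothelial markers as a list did not rise: their log2 ratios at 48 h ran from -1.01 to 1.82 with a median of -0.13. Their summed level was 12.29 and 12.62 in control against 11.87 and 12.17 in treated livers. That of recruited macrophages at 48 h rose on replicate 1, but on replicate 3 it was 12.64 in control and 12.65 in treated livers. Of 6 lymphocyte markers and 4 markers of dividing cells none was called at 48 h, and of 5 stellate cell markers 1 was lower. The part of these shifts in the member values was not tested.

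Of the 21 kept SR protein probes, 5 were called higher and 2 lower at 48 h, with a median of -0.023, beside 19.3% and 14% of all kept probes. At 3 h 0 and 3 were called (2.26% and 2.86%), at 8 h 4 and 3 (7.35% and 8.24%) and at 24 h 2 and 0 (7.5% and 12.1%). Among the SR proteins, Srsf1 was the lowest member at 3 h. It encodes SF2/ASF, the founding member of the family and an activator of many exons. Probe A_51_P485899 (chr11:87864550-87864609) gave -1.11 and -1.45 at 3 h and -1.07 and -1.42 at 8 h, or 2.43-fold lower and 2.37-fold lower in treated livers. At 24 h it gave -0.035 and 0.25, with 1 array on each side of 0, and the difference between 8 and 24 h was called. Probes A_55_P1964477 and A_66_P103490 gave -0.92 and -1.10 and -0.81 and -1.20 at 8 h, and both were called lower there but not at 3 h. All 3 probes thus fell at 8 h, the 1 gene with several probes that were all called alike at that time. The calls of A_51_P485899 held with every array left out, while those of the other two were lost when either 8 h array was left out.

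Srsf3 encodes SRp20, an SR protein that also acts in messenger RNA export and regulates its own splicing through a decay-inducing exon. Its brighter probes had high ratios at 8 and 48 h. Probe A_55_P1980125 (chr17:29178485-29178544) gave 1.46 and 0.81 at 8 h and 1.20 and 1.15 at 48 h, the latter 2.26-fold higher in treated livers. In log2 levels its control livers stood at 8.30 and 7.73 at 48 h against 8.79 and 9.32 at 3 h, a difference not called. Treated livers stood at 9.50 and 8.88 at 48 h against 8.81 and 9.53 at 3 h. Probe A_55_P2177614, printed above, gave 0.80 and 0.68 at 8 h, 0.58 and 0.69 at 24 h and 0.91 and 1.01 at 48 h. Its control livers stood at 8.97 and 8.69 at 48 h against 9.31 and 9.51 at 3 h, also not called. Its treated livers stood at 9.87 and 9.70 against 9.72 and 9.66. By 72 h the ratio of the first probe stood at -0.21 and 0.051 and that of the second at 0.36 and -0.27. The fall from 48 h was called for both. The dimmer probe A_51_P417016 stayed within -0.36 to 0.11 on all 10 arrays and was called at no time. At 8 h the call of A_55_P1980125 was lost without replicate 2 and that of A_55_P2177614 without either array, as was that of A_55_P2177614 at 24 h.

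The brighter Srsf7 probe gave the highest ratio of any member at 8 h. Srsf7 encodes 9G8, an SR protein with a zinc knuckle that also takes part in mRNA export. Probe A_55_P1983819 (chr17:80600741-80600800) gave 1.86 and 1.46 at 8 h, 3.16-fold higher in treated livers, against 0.40 and 0.82 at 3 h and 0.80 and 0.28 at 24 h. Its other probe, A_51_P466673, gave -0.013 and -0.39 at 8 h and -0.44 and -0.86 at 48 h, where it was called lower, a call lost without replicate 3. The 2 probes therefore differed by 1.86 on the log2 scale at 8 h.

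Srsf9, which encodes SRp30c, was low early and high late. Its probe A_51_P336691 (chr5:115782747-115782806) gave -0.37 and -0.52 at 3 h, -0.087 and -0.11 at 24 h and 1.07 and 1.10 at 48 h, and fell back to -0.034 and 0.059 at 72 h. At 48 h it was 2.12-fold higher in treated livers, a call that held with every array left out and with median centring. The call at 3 h was lost in 8 of the 10 runs with an array left out, either 3 h array among them. Its level in control livers at 48 h was itself below that at 3 h, as given with the control livers.

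The remaining SR proteins gave smaller or less even changes. Srsf2 (SC35, an SR protein that stays in the nucleus) had probe A_55_P2030486 at 0.54 and 0.52 at 8 h, called higher, and probe A_52_P8043 at 0.49 and 0.98 at 48 h, called higher. At 48 h the first stood at -0.47 and -0.027, so that its 2 probes pointed opposite ways. Srsf6 (SRp55) had probe A_65_P10357 at -0.87 and -0.55 at 3 h, 1.64-fold lower and called, while its other probe gave -0.054 and 0.21. Srsf11, an SR-related factor also known as p54, gave 0.93 and 0.69 at 24 h with probe A_55_P2149821, called higher, and -0.23 and -0.39 at 48 h. Its dimmer probe A_55_P2149816 gave -0.14 and 0.13 at 24 h and was called at no time. Srsf10, a splicing repressor when dephosphorylated, had 1 of 3 probes called, at 0.56 and 0.55 at 48 h. Its other probes were dim: A_55_P1978810 was well above background in 2 control and 1 treated channels and A_51_P519592 in 10 and 5. The calls of Srsf2, Srsf6, Srsf10 and Srsf11 each depended on 1 or both arrays of the time point: Srsf2 at 48 h was lost without replicate 3, Srsf6 without replicate 1, and the others without either array.

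Srsf4 and Srsf5, which encode the related proteins SRp75 and SRp40, had values below 0 at 24 and 48 h. Srsf5, whose probe sequence above runs through its arginine-serine codons, gave 0.21 and 0.82 at 8 h, -0.67 and -0.46 at 48 h and 0.22 and 0.31 at 72 h. Of these the value at 48 h was called, 1.48-fold lower, and that call was lost without either array, while the rise from 48 to 72 h was called. Srsf4 gave 0.055 and 1.10 at 8 h, -1.57 and -0.36 at 24 h and -1.15 and -0.56 at 48 h and was not called at any time, the 2 arrays differing widely. Srsf12, a small repressor-type SR protein, stayed within -0.21 to 0.22. Its probe was well above background in 8 control and 5 treated channels, so a change may have been understated.

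Tra2a, an SR-like activator, gave 0.76 and 0.43 at 8 h and was called at no time. Pnisr, which encodes a serine- and arginine-rich nuclear protein and is carried under the older name Sfrs18, gave -0.79 and -0.52 at 8 h and -1.32 and -0.42 at 48 h. It was called lower at 48 h, a call lost without replicate 1, and its return to -0.14 and 0.46 at 72 h was called. The probe carried under the name Srsf12 and matched by its accession to Srek1, a regulator that joins SR proteins at splice sites, gave 1.39 and 1.43 at 3 h and 0.78 and 0.67 at 8 h, or 2.65-fold higher and 1.65-fold higher. At 24 h it stood at 0.054 and 0.18 and at 72 h at 1.27 and 0.52. The 60 bases of this probe hold a run of TG repeats 30 bases long, and whether its signal is that of Srek1 was not tested. Its call at 8 h was lost without either array and all its calls were lost with median centring, where its value at 3 h was 0.21.

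Tardbp encodes TDP-43, an hnRNP-like protein that binds UG-rich RNA, represses cryptic exons and limits its own messenger RNA. Its brightest probe, A_55_P1980180 (chr4:147990993-147991052), had the widest swing among the member probes between neighbouring time points. It gave -0.75 and -1.07 at 3 h, -1.41 and -1.72 at 8 h and 1.75 and 1.45 at 24 h, that is 2.96-fold lower and then 3.03-fold higher. At 48 h it stood at -0.47 and 0.27 and at 72 h at -0.11 and -0.019. The difference of 3.16 ± 0.25 between 8 and 24 h and that of -1.70 ± 0.25 between 24 and 48 h were both called, and a dye effect that is equal on all arrays cancels in them. The log2 level of control livers at this probe was 10.73 and 11.43 at 8 h and 11.06 and 11.11 at 24 h, against 9.32 and 9.71 and 12.81 and 12.55 in treated livers. The calls at 8 and 24 h held with every array left out, and the call at 3 h was lost without either 3 h array.

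The other 2 Tardbp probes did not share this. Probe A_55_P2005135 gave 0.18 and 0.25 at 8 h, -0.067 and -0.0027 at 24 h and 0.35 and 0.70 at 48 h, where it was called higher unless replicate 3 was left out. Probe A_65_P18570 stayed within -0.46 to 0.28 and was called at no time. It was well above background in 9 of 10 control and 7 of 10 treated channels, and A_55_P2005135 in 10 and 8.

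**Figure D3:**
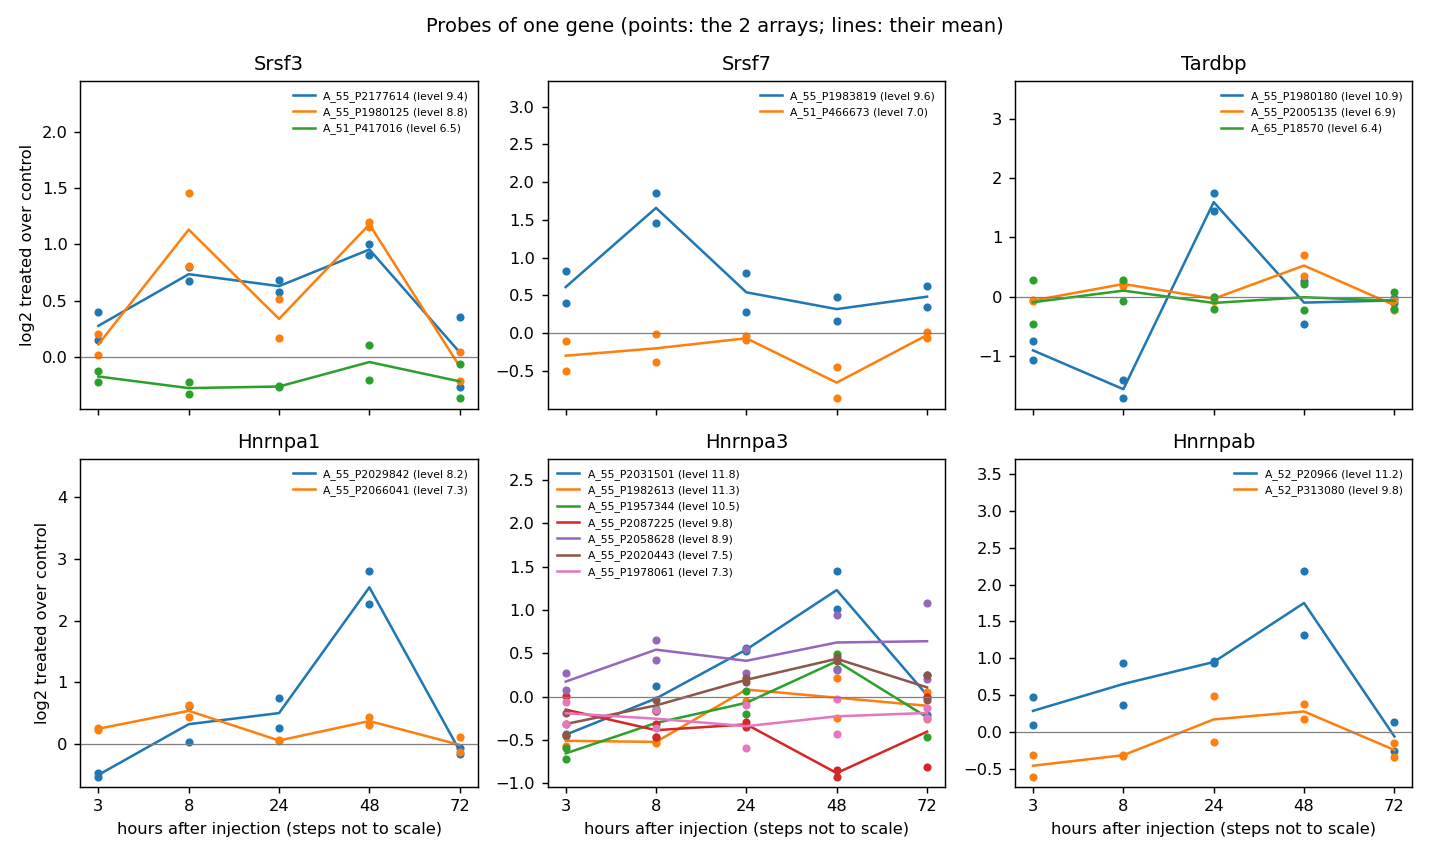
Log2 ratio of treated over control against hours after injection for the 6 genes whose probes differed by over 1 at some time point. Points are the 2 arrays, lines join their means, and the number in each legend entry is the probe's mean log2 intensity. In Srsf3, Srsf7, Tardbp, Hnrnpa1 and Hnrnpab 1 probe stays within 1 of 0 where another moves by over 1, and the 7 Hnrnpa3 probes spread from -0.88 to 1.23 at 48 h.

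Such disagreement between probes was common. The 18 genes with several kept probes gave 48 pairs, and in 14 pairs, from 6 genes, the means differed by over 1 at some time point. In 12 of the 14 the probe with the higher mean intensity lay farther from 0. Many of these pairs are of Hnrnpa3 and share probes, and the offset understates the ratios of dim probes. The count is therefore a description, and what lies behind it was not tested. Of the 11 genes with several probes and a call at 48 h, 1 had all its probes called alike, Hnrnpa1. At 24 h it was Hnrnpf, and at 8 h Srsf1, as given above.

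The highest values at 48 h were those of Hnrnpa1 and Hnrnpab, of the hnRNP A/B and D group. These proteins carry a pair of RNA recognition motifs and a glycine-rich tail. Of their 18 probes, 8 were called higher and 1 lower at 48 h, with a median of 0.39, beside 19.3% and 14% of all kept probes. At 8 h 4 and 1 were called (7.35% and 8.24% of all kept probes) and at 24 h 4 and 0 (7.5% and 12.1%). Hnrnpa1, a repressor of exon inclusion that also shuttles messenger RNA to the cytoplasm, had the highest value of any member. Probe A_55_P2029842 (chr15:103075181-103075240) gave 0.75 and 0.26 at 24 h and 2.27 and 2.80 at 48 h, a mean of 2.54 ± 0.18 or 5.81-fold higher, and -0.055 and -0.16 at 72 h. In log2 levels, treated livers stood at 9.64 and 9.73 and control livers at 7.36 and 6.93 at 48 h, where the control level was also below its 3 h value of 8.32 and 8.63. The second probe, A_55_P2066041, gave 0.64 and 0.44 at 8 h and 0.43 and 0.32 at 48 h and was called higher at both. Its call at 8 h was lost without replicate 2 and that at 48 h without either array. The genome holds many processed copies of Hnrnpa1 and Hnrnpa3, so what their probes report is uncertain.

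Hnrnpab, which encodes a protein that binds AU-rich RNA and is also known as CBF-A, was the second highest member at 48 h. Probe A_52_P20966 (chr11:51414914-51414973) gave 0.93 and 0.37 at 8 h, 0.96 and 0.94 at 24 h and 1.31 and 2.18 at 48 h, 3.36-fold higher. At 72 h it was -0.27 and 0.14, and that fall was called. Its other probe, A_52_P313080, gave -0.14 and 0.48 at 24 h and 0.18 and 0.37 at 48 h and was called at no time. The call of A_52_P20966 at 24 h was lost without either array.

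Hnrnpa0, a regulator of messenger RNA stability downstream of stress kinases, was the 1 member called higher at 4 time points with the same probe. Probe A_66_P118233 (chr13:58227371-58227430) gave 0.73 and 0.72 at 3 h, 1.37 and 0.88 at 8 h, 0.97 and 0.69 at 24 h and 1.24 and 1.26 at 48 h. All 8 arrays lay above 0, and at 48 h the gene was 2.38-fold higher. At 72 h it gave 0.22 and 0.45, and the fall from 48 h was called. The second probe, which reads through the RNP1 core printed above, gave 0.36 and 0.30 at 8 h and 0.11 and 0.41 at 48 h and was called at no time. With median centring the value at 3 h was -0.30, so the direction at that time rests on the loess scaling. The call at 3 h was lost without either array and that at 24 h without replicate 1.

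Hnrnpa2b1, whose products sort RNA in the nucleus and into vesicles, gave 0.78 and 0.37 at 8 h, 0.27 and 0.56 at 24 h and 0.68 and 0.50 at 48 h with probe A_55_P2017082. It was called higher at all 3 times, with both arrays above 0 each time. The other probe stayed within -0.13 to 0.40. With median centring the value at 24 h was -0.25. The call at 24 h was lost in 8 of the 10 runs with an array left out, that at 8 h without replicate 2 and that at 48 h without replicate 1.

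Hnrnpa3, a close relative of Hnrnpa1, had 7 kept probes on chromosome 2 that did not move as one. At 48 h probe A_55_P2031501 gave 1.01 and 1.45, 2.35-fold higher, and probe A_55_P2087225 gave -0.92 and -0.84, 1.85-fold lower. Both arrays of one lay above both arrays of the other. The junction probes printed above gave 0.41 and 0.46 (called higher) and 0.95 and 0.30 (not called). Probe A_55_P1957344 gave -0.59 and -0.72 at 3 h and 0.49 and 0.32 at 48 h, called lower and then higher, probe A_55_P1982613 gave -0.54 and -0.51 at 8 h, called lower, and A_55_P1978061 stayed within -0.59 to -0.029. Of these the call of A_55_P2031501 at 48 h held with every array left out. Those of A_55_P2020443, A_55_P1957344 and A_55_P1982613, and that of A_55_P2031501 at 24 h (0.53 and 0.56), were lost without either array of the time point, and that of A_55_P2087225 without replicate 1.

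Hnrnpdl, a paralog of the AU-rich element binder Hnrnpd, moved early instead. Probe A_55_P2116993 gave 0.38 and 0.98 at 3 h, 1.04 and 1.33 at 8 h and -0.0069 and 0.27 at 24 h, and was called at 8 h, 2.28-fold higher, a call lost without either array. Its other probe stayed within -0.44 to 0.43. Hnrnpd itself gave 0.53 and 0.36 at 48 h and was called at no time.

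The 2 probes of Hnrnpc, whose product packages nascent transcripts and binds runs of uridine, were called at no time and stayed within -0.31 to 0.42 and -0.12 to 0.49. The hnRNP F/H proteins bind runs of guanine, and at 24 h 3 of the 5 probes of their genes were called higher, with a median of 0.53, beside 7.5% of all kept probes. Both Hnrnpf probes were among them: A_52_P141161 gave 0.91 and 0.55 and A_55_P2028821 gave 0.61 and 0.63, against -0.17 and -0.14 and -0.30 and -0.033 at 48 h. The fall from 24 to 48 h was called for A_52_P141161. Hnrnph1 gave 0.59 and 0.58 at 3 h, 0.81 and 0.54 at 8 h and 0.79 and 0.26 at 24 h and was called at the last 2. With median centring the 24 h values were -0.13 for Hnrnph1 and -0.028 for A_55_P2028821. Hnrnph2 was called higher at 48 h at 0.52 and 0.17. Hnrnph3 was called lower at 8 h at -0.54 and -0.58 and at 48 h at -0.60 and -0.57, and it was well above background in 10 control but 3 treated channels. Without the 24 h replicate 1 the calls of Hnrnph1 and A_52_P141161 were lost, and without either array that of A_55_P2028821. At 8 h those of Hnrnph1 and Hnrnph3 were lost without either array, and Hnrnph2 at 48 h without replicate 1.

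Of the 5 probes of the K and L genes 4 were called higher at 48 h, with a median of 0.53, beside 19.3% of all kept probes. Hnrnpll, a regulator of alternative splicing best known from lymphocytes, gave 0.34 and 0.21 at 24 h and 0.97 and 1.20 at 48 h, 2.12-fold higher, and 0.18 and 0.36 at 72 h. Hnrnpl, which binds CA-rich RNA, gave -0.21 and 0.069 at 24 h and 0.60 and 0.71 at 48 h, 1.58-fold higher. Both held with every array left out and with median centring, and both rises from 24 to 48 h were called. Hnrnpk, a binder of C-rich RNA and DNA, was low at 24 h with probe A_55_P2107854 at -0.75 and -0.53 and high at 48 h at 0.61 and 0.45. Its probe A_65_P08022 gave 0.27 and 0.68 at 48 h, called higher, and A_55_P2107855 gave -0.51 and -0.61 at 24 h and -0.31 and 0.56 at 48 h and was called at no time. The call of A_55_P2107854 at 24 h was lost without replicate 1 and at 48 h without either array, and that of A_65_P08022 without replicate 3.

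Among the M, R and U genes, Hnrnpm, whose product joins the spliceosome early, gave 0.27 and 0.29 at 24 h and 0.92 and 0.80 at 48 h, 1.82-fold higher, and its fall to -0.42 and 0.0022 at 72 h was called. Hnrnpr gave -0.74 and -0.35 at 24 h, called lower, and 0.42 and 0.36 at 48 h, called higher, and the rise between them was called. Hnrnpu, a nuclear scaffold protein, gave 0.60 and 0.59 at 48 h, called higher. Its relative Hnrnpul2 lay below 0 on all 8 arrays up to 48 h. It gave -0.50 and -0.81 at 3 h, -0.60 and -0.85 at 8 h, -0.48 and -0.45 at 24 h and -0.44 and -0.73 at 48 h. It was called lower at 8 and 48 h, 1.65-fold lower at the first. Hnrnpul1 was called lower at 8 h with probe A_55_P2025855 at -0.65 and -0.42, while its dimmer probe stayed within -0.27 to 0.097. Hnrnpm held with every array left out. The calls of Hnrnpul2, Hnrnpul1, Hnrnpu and Hnrnpr were lost without either array of the time point, except Hnrnpr at 24 h, lost without replicate 1.

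Between neighbouring time points no member difference was called from 3 to 8 h (1.76% of all kept probes in either direction). At an unadjusted p under 0.05 limma gave 10 members higher and 3 lower, beside 16.3% of all kept probes in either direction. From 8 to 24 h 3 members rose and 2 fell (4.25% and 7.35%), from 24 to 48 h 8 rose and 3 fell (10.5% and 3.28%), and from 48 to 72 h 4 rose and 12 fell (8.62% and 13.4%). The 12 that fell from 48 to 72 h were both brighter Srsf3 probes, Srsf9, Tardbp A_55_P2005135, Hnrnpa0, Hnrnpa1, 2 Hnrnpa3 probes, Hnrnpab, Hnrnpl, Hnrnpll and Hnrnpm. Neighbouring differences share an array pair and are not independent.

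Of the 63 kept probes, 43 were called at 1 or more time points, beside 45.9% of all kept probes. Those called at 3 or more were Srsf3 A_55_P2177614, Tardbp A_55_P1980180, Hnrnpa0 A_66_P118233 and Hnrnpa2b1 A_55_P2017082. Called lower at one time and higher at another were Srsf9, Tardbp A_55_P1980180, Hnrnpa3 A_55_P1957344, Hnrnpk A_55_P2107854 and Hnrnpr. The 5 member genes whose brightest probe was most like that of Srsf3 over the 10 arrays were Hnrnpa2b1 (Pearson r 0.80), Hnrnpab (0.77), Hnrnpa0 (0.76), Hnrnpa1 (0.73) and Hnrnpl (0.69). These arrays pair up by time point, and the correlations are a description. At the other end of the same ranking stood Pnisr at -0.74.

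The promoters of Srsf3, Hnrnpa1 and Hnrnpab, each with a probe called higher at 48 h without regard to which array was left out, are shown as 250 bases up to the first listed start from RefSeq (GRCm38.p6), read on the gene's strand. Capitals mark CCAAT on either strand, which is bound by NF-Y.
Srsf3 (chr17:29032410-29032659, plus strand): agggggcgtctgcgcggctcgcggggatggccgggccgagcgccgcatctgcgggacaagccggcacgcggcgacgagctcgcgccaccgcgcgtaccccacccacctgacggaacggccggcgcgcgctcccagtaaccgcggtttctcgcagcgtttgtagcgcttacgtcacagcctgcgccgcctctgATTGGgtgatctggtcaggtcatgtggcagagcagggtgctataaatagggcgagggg
Hnrnpa1 (chr15:103240147-103240396, plus strand): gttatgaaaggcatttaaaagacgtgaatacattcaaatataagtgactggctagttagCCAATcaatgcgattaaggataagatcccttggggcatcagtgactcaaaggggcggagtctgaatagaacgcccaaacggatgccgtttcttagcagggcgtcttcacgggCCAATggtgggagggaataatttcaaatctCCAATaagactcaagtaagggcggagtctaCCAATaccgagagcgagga
Hnrnpab (chr11:51606882-51607131, minus strand): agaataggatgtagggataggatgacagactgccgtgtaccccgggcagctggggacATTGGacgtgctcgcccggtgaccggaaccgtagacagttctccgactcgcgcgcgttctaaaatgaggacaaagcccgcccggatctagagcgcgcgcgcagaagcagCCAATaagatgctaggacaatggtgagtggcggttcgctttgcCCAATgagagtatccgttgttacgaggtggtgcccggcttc
The printed promoters hold 1, 4 and 3 such matches. Of 36 members 33 had a promoter in the table. In windows from 250 bases before the start to 50 after it, CCAAT was found in 17 of these 33 (51.5%), against 37.9% of 27025 promoters. The letters CCGGAAG were in 7 (21.2% against 9.1%), TATAAA in 4 (12.1% against 14.2%) and TGACGTCA in 1 (3.0% against 1.9%), all searched on both strands. A match is a description of the letters and shows no binding.

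The control livers were also compared among themselves in the Cy3 channel. Their levels are the denominators of the ratios, so this comparison is not independent of the choice of the family and is a description too. By limma's F test over time the Srek1 probe was the 1 of 63 member probes called (2.48% of all kept probes). Its log2 level was 13.27 and 13.56 at 3 h, 13.34 and 13.93 at 8 h, 12.64 and 12.37 at 24 h, 12.96 and 12.46 at 48 h and 11.59 and 11.81 at 72 h. Both 72 h values lay below all others, and the change from 3 h was -1.72 ± 0.25, the 1 member called at 72 h beside 1.11% of all kept probes. The 3 h arrays lay on slides 4 and 1 and those of 48 and 72 h on slides 3 and 2, so these comparisons set different slides against each other. With the slide as a block no member was called by the F test, at 48 h or at 72 h, and the same held with offset 0. The F test called no member without any 1 of the arrays of 3, 24 or 72 h or without 8 h replicate 3, 1 without either 48 h array and 2 without 8 h replicate 2.

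At 48 h 3 members were called lower than at 3 h in control livers and none higher (3.97% and 2.1% of all kept probes, limma with Benjamini-Hochberg). At an unadjusted p under 0.05 by limma 14 were lower and 7 higher, beside 21.8% of all kept probes in either direction. Of the 3 called, Hnrnpa1 A_55_P2029842 went from 8.32 and 8.63 to 7.36 and 6.93. Srsf9 went from 9.47 and 9.48 to 8.95 and 8.74 and Hnrnpk A_65_P08022 from 8.06 and 8.34 to 7.52 and 7.50. In all 3 both 48 h controls lay below both 3 h controls. The count at 48 h was 1 with quantile scaling of all channels, 0 with the replicate block and 7 with the scan day as a block. For these genes the ratio at 48 h sets a treated level against a control level that differed from its 3 h value. Treated livers stood at 10.02 and 9.84 for Srsf9 against 9.09 and 8.96 at 3 h, and at 9.64 and 9.73 for Hnrnpa1 against 7.85 and 8.10. For Hnrnpk A_65_P08022 treated livers stood at 7.79 and 8.19 at 48 h against 7.88 and 8.17 at 3 h, so no rise was seen there. No member was called in control livers at 8 h (0% of all kept probes) or at 24 h (2.08%) against 3 h. At an unadjusted p under 0.05 by limma the member counts were 0 at 8 h (5.34% of all kept probes) and 2 higher and 1 lower at 24 h (14.5%).

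**Figure D4:**
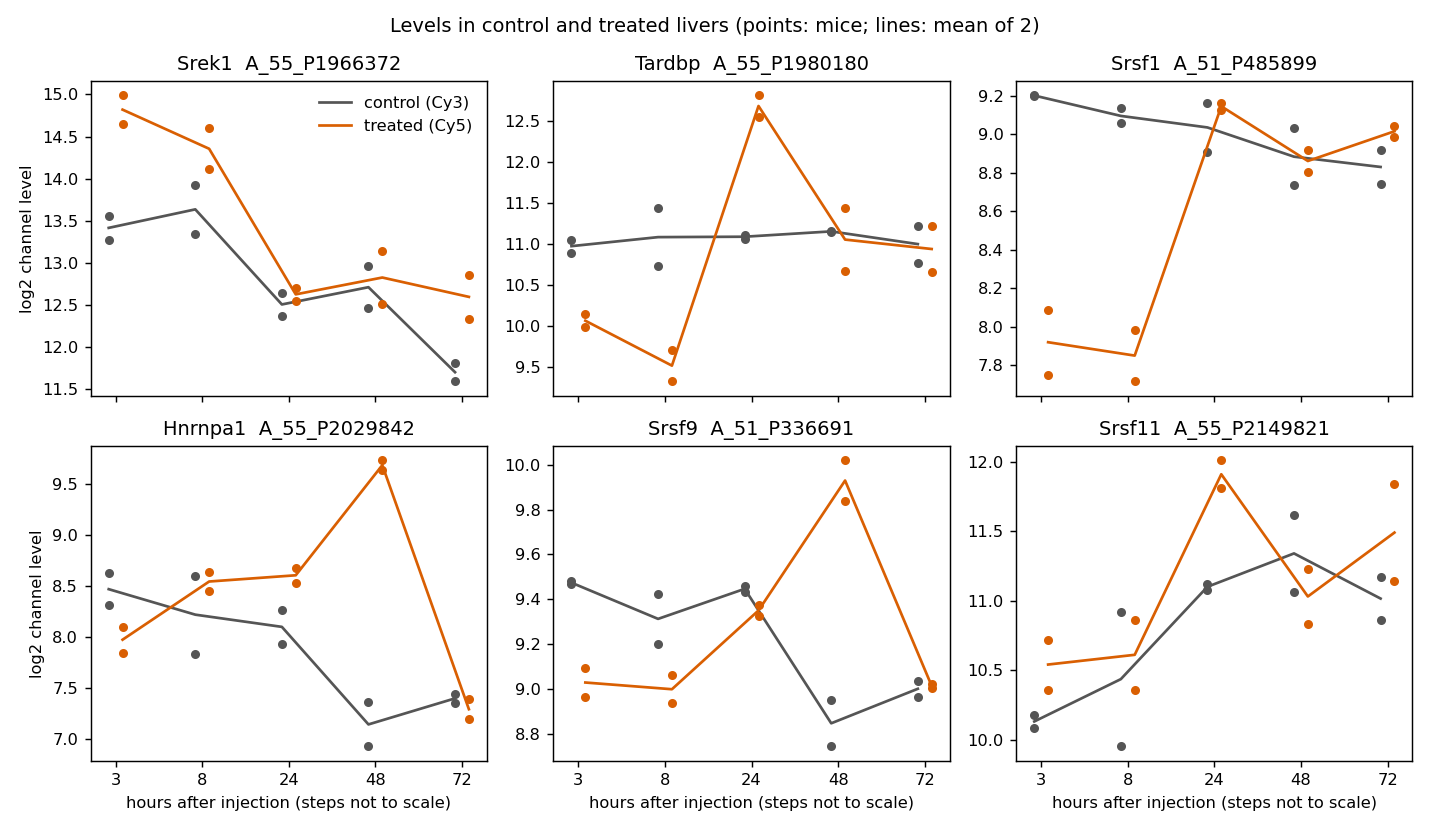
Log2 channel level of 6 member probes against hours after injection, in control livers (grey, Cy3) and treated livers (orange, Cy5). Points are mice and lines join the mean of 2. The Srek1 level was lower at 72 h than at 3 h in both groups, the Tardbp swing was in treated livers, and for Hnrnpa1 and Srsf9 the gap at 48 h opened with controls lower than at 3 h and treated livers higher.

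Other genes of the splicing pathway were counted 1 probe per gene, the brightest kept, in lists put together with earlier results of these data known. The shares of all 24007 genes called higher and lower were 2.45% and 2.92% at 3 h, 7.42% and 8.49% at 8 h, 7.74% and 12.1% at 24 h and 19.1% and 14.5% at 48 h. Of 52 core spliceosome genes, 0 were higher and 2 lower at 3 h, 5 and 8 at 8 h, 5 and 4 at 24 h, and 25 and 5 at 48 h, with a median of 0.43 at 48 h. The 25 include the Sm-like genes Lsm4 at 0.90 and 1.57 and Lsm8 at 1.06 and 1.31, and also Snrpc at 1.15 and 1.25. Prpf8, the scaffold at the spliceosome's catalytic centre, pointed the other way at -1.07 and -0.61 at 24 h and -1.19 and -0.97 at 48 h, called lower at both. At 24 h Snrpd1 (0.79 and 0.60) and Prpf31 (0.68 and 0.50) were called higher and Lsm6 (-0.66 and -0.52) and Ddx46 (-0.82 and -0.29) lower. With median centring the 48 h counts were 5 and 0, and with the slide as a block 16 and 4. With the background fitted on all spots, with none left out for its local background, they were 26 and 5. At 8 h they were then 2 and 11, and at 24 h 3 and 2.

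Of the kinases that phosphorylate SR proteins, Clk1 and Clk4 were called in both directions over time. Clk1 gave 0.46 and 1.03 at 3 h, 0.87 and 0.83 at 8 h, -0.43 and -0.60 at 24 h and -0.65 and -0.43 at 48 h, called higher at the first 2 and lower at the last 2. Clk4 gave 1.29 and 1.17 at 8 h, called higher, and -0.90 and -0.44 at 48 h, called lower. Srpk2 was called higher at 3 h (0.63 and 0.47) and 24 h (0.52 and 0.29), and Dyrk1a (0.89 and 0.64) and Prpf4b (0.46 and 0.27) at 24 h. Clk2 was called lower at 8 h (mean -0.71 ± 0.19, n = 2), and Clk3, Srpk1 and Dyrk1b were called at no time. Of 9 kinases measured, 2 were higher and 0 lower at 3 h, 2 and 1 at 8 h, 3 and 1 at 24 h and 0 and 2 at 48 h. None was called at any time with median centring, and 1 at 8 h and 1 at 24 h with the slide as a block. With the background fitted on all spots 0 kinases were called at 24 h, and 0 were higher and 1 lower at 48 h. The counts at 3 and 8 h were then unchanged.

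Of 15 genes of nonsense-mediated decay and the exon junction complex, 0 were higher and 1 lower at 3 h, 3 and 2 at 8 h, 4 and 1 at 24 h and 5 and 1 at 48 h. With median centring none was called at 3, 8 or 24 h and 2 were higher and 0 lower at 48 h. With the slide as a block 0 were higher and 1 lower at 24 h and 4 and 2 at 48 h. With the background fitted on all spots 0 were higher and 2 lower at 3 h, 1 and 2 at 8 h, 1 and 1 at 24 h and 5 and 2 at 48 h. Rnps1, an exon junction partner that recruits the decay factors, gave 0.86 and 0.94 at 8 h and 0.85 and 1.05 at 48 h, and Upf3a, a weak decay factor, 0.87 and 1.11. The endonuclease gene Smg6 was called lower at 48 h, at -0.55 and -0.89. Of the 3 transportin genes, Tnpo3, which carries SR proteins into the nucleus, was called higher at 24 h (0.89 and 0.70) and Tnpo2 at 48 h (0.50 and 0.58).

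Of the other 44 splicing regulators 10 were called higher and 10 lower at 48 h, with 5 and 3 at 3 h, 8 and 9 at 8 h and 8 and 3 at 24 h. With median centring the 48 h counts were 3 and 0, with none called at the other times, and with the slide as a block they were 8 and 2. With the background fitted on all spots they were 11 and 9 at 48 h and 4 and 4 at 24 h. The cold-inducible RNA-binding protein gene Rbm3 gave 1.65 and 0.66 at 24 h and 2.01 and 2.72 at 48 h, and its relative Cirbp 2.88 and 2.54 at 3 h and 0.27 and 1.81 at 48 h. Mbnl2 was called higher at 48 h (1.25 and 0.99). Ptbp1, which represses exons through pyrimidine tracts, was called higher at 8 h (1.34 and 1.19), 24 h (0.69 and 0.65) and 48 h (0.76 and 0.53). Rbfox2 was called lower at 8 h (-0.68 and -0.43) and higher at 24 h (0.84 and 1.22). Luc7l3 (-1.17 and -1.03), Khsrp (-1.03 and -1.08) and the epithelial regulator Esrp2 (-0.61 and -1.04) were called lower at 48 h, and Mbnl1 at 24 h (-1.06 and -0.89).

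**Figure D5:**
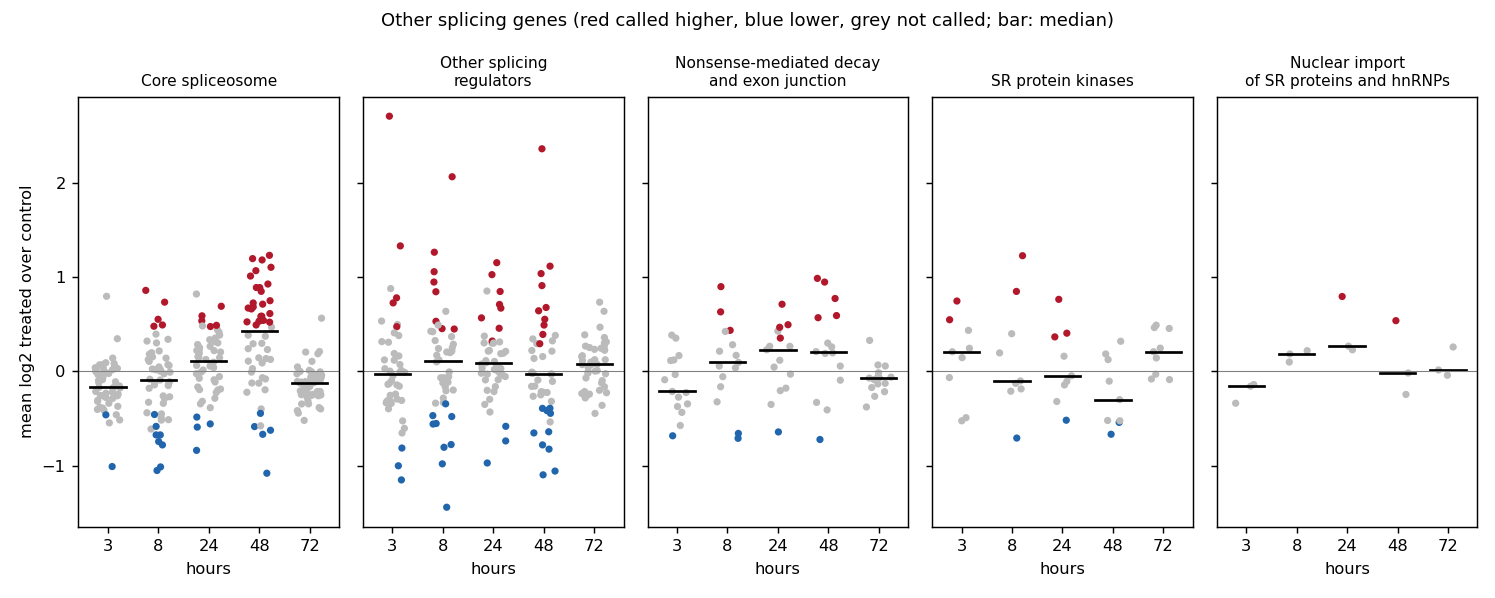
Mean log2 ratio of treated over control for genes of 5 splicing lists at each time point, 1 point per gene, red where called higher, blue where called lower and grey otherwise, with a bar at the median. The core spliceosome points shift upward at 48 h, where 25 of 52 are red, and no gene is coloured at 72 h.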

How the data were processed

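RNA of 1 control (Cy3) and 1 treated (Cy5) liver was hybridised to each of 10 Agilent 2-colour arrays, 2 per time point. Per the file headers, the authors extracted the arrays with Feature Extraction 10.7.3.1 and deposited a mean intensity and a local background intensity per spot and a log10 ratio of red over green. The deposited value table is treated as a score of unstated scale: it ran with the software's log10 ratio at a slope of 1.443 on every array (correlation 1, column medians 0), and 7.25% to 25.5% of its values were exactly 0, so its direction is treated over control while its log base and rounding are unknown.

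Mean and background intensities were corrected with limma 3.58.1 in R 4.3.3 (normexp, offset 50) and normalized within arrays by loess, with control and outlier spots at weight 0. Spots whose local background exceeded 2 times the array's median (106 spots on 6 arrays, 0.0239%, 0 of them member spots) were given the median background in the fit and then left out, because they had pulled the background estimate of those arrays; this rule uses the background alone and was chosen after the data were seen. Spots of a probe were averaged, and probes were kept if both arrays of 1 or more time points were well above background in the same channel (29623 of 39429). lmFit and eBayes gave a log2 ratio per time point over all 10 arrays, with Benjamini-Hochberg adjustment over all kept probes at 0.05. Control livers were compared in the Cy3 channel after loess and Aquantile scaling. The scripts were tested on simulated data.

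The members and lists were chosen with earlier results of these data known. By the naming rule, members with the 6 highest and 6 lowest means at a time point, the largest changes from 24 to 48 h, probe pairs over 1 apart and the brightest members were named, and of each list up to 3 called genes each way at 24 and 48 h; further members and list genes are given for completeness, chosen after their values were seen. Probe names were taken through their accessions where these matched RefSeq (61 of 64 probes). Whether a probe lies in coding sequence was not analysed here. Open frames were counted as a description and do not separate coding sequence from UTR. Alternatives were other background corrections, scalings and filters, blocks for replicate, scan day and slide, and each array left out.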

Additional observations from a re-analysis of the deposited data

Results flagged for a closer look

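The response of some members differed between neighbouring time points by limma's test of that difference (Benjamini-Hochberg over all kept probes). Values are the later minus the earlier log2 ratio of treated over control. They come from the ratios with which the family was chosen, and no explanation was tested. From 8 to 24 h Tardbp A_55_P1980180 changed by 3.16, Srsf1 A_51_P485899 by 1.36 and Srsf1 A_55_P1964477 by 0.84, while Srsf7 A_55_P1983819 changed by -1.12 and Hnrnpk A_55_P2107854 by -0.78.

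From 24 to 48 h Hnrnpa1 A_55_P2029842 changed by 2.03, Srsf9 by 1.18, Hnrnpk A_55_P2107854 by 1.17, Hnrnpr by 0.93, Srsf3 A_55_P1980125 by 0.84, Hnrnpll by 0.81, Hnrnpl by 0.73 and Tardbp A_55_P2005135 by 0.56. Tardbp A_55_P1980180 changed by -1.70, Srsf11 A_55_P2149821 by -1.12 and Hnrnpf A_52_P141161 by -0.89.

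From 48 to 72 h the falls ran from Hnrnpa1 A_55_P2029842 at -2.64 and Hnrnpab A_52_P20966 at -1.81 over Srsf3 A_55_P1980125 at -1.26, Hnrnpa3 A_55_P2031501 at -1.21, Srsf9 at -1.07 and Hnrnpm at -1.07. Hnrnpa0 A_66_P118233 and Srsf3 A_55_P2177614 changed by -0.91 each, Hnrnpll by -0.82, Hnrnpl by -0.78, Tardbp A_55_P2005135 by -0.67 and Hnrnpa3 A_55_P1957344 by -0.65. Pnisr changed by 1.03, Srsf5 by 0.83, Srek1 by 0.78 and Hnrnph3 by 0.46.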

How the results depend on the processing

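Over the alternatives, 6179 of 6870 member values kept their direction and call. With their direction unchanged, 296 lost the call and 81 gained it. Another 309, called in neither setting, changed direction, and 5 that were called with loess reversed. Most of these values were not called to begin with, so most that kept their call stayed uncalled. Runs with an array left out gave 2910 of the 6179, and leaving out an array of another time point cannot change a value's direction. The software's log ratio and the authors' value table ran together at a correlation of 1 and kept 268 values each, so they are not separate checks. The share kept is therefore no measure of robustness. Of the 63 probes 7, 18, 12, 28 and 0 were called at 3 to 72 h with loess. Under median centring alone, 50 values lost the call with their direction unchanged and 0 gained it. The 5 reversed values lost their calls too. All 5 reversals were under median centring in place of loess: Hnrnpa0 A_66_P118233 at 3 h was -0.30, and at 24 h Hnrnph1 was -0.13, Hnrnpa3 A_55_P2031501 -0.11, Hnrnpf A_55_P2028821 -0.028 and Hnrnpa2b1 A_55_P2017082 -0.25. Under it the members called were 0 at 3, 8 and 24 h, 10 at 48 h, 0 from 8 to 24 h, 1 from 24 to 48 h and 1 from 48 to 72 h. Over all kept probes the calls between these last 3 pairs of time points were 26, 146 and 331 in turn, against 3435, 4073 and 6515 with loess. With offset 0 the members called were 3 from 8 to 24 h and 0 in control livers. The software's log ratio and the authors' value table each gave 18 at 48 h, 2 from 8 to 24 h and 6 from 24 to 48 h. A stricter filter gave 9 from 8 to 24 h and the scan day as a block 8. With the slide as a block the counts were 2, 9, 7 and 17 at 3, 8, 24 and 48 h, 2 from 8 to 24 h, 4 from 24 to 48 h and 0 in control livers. With the background fitted on all spots they were 10, 18, 9, 31 and 0 at 3 to 72 h. The causes were not tested.

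With 1 array left out the counts at 3, 8, 24, 48 and 72 h ran in turn from 2 to 8, 4 to 22, 1 to 12, 16 to 30 and 0 to 1. Between time points they ran from 0 to 1 (3 to 8 h), 3 to 8 (8 to 24 h), 3 to 14 (24 to 48 h) and 10 to 17 (48 to 72 h), and in control livers from 0 to 2. The replicate numbers follow the scan day (1 and 2 on the first, 3 on the second). The deviations of same-numbered arrays correlated above 0.1 for 4 of 10 pairs of time points, with a range of -0.077 to 0.31, so the arrays were not treated as paired. With the replicate block the members called were 4, 19, 9 and 24 for 3 to 48 h in turn. The number of arrays limits the precision, and for dim probes the signal over background.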
